A study of Mus musculus with 20 samples.

Results

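The genes described here are 39 markers of the non-parenchymal liver, 16 of hepatic stellate cells and their mesenchymal relatives and 23 of liver sinusoidal endothelial cells and other endothelium. They were taken by symbol from the male and the female RNA-seq table and joined by Ensembl identifier, and all 39 were present in both, out of 56884 genes in the male table and 18149 in the female table. The rule used no measured value. The symbols of the 39 genes were the same in both tables.

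The study profiled whole liver of male and female mice in which the Midn gene, which encodes the proteasome adaptor midnolin, carries an invertible gene-trap cassette. The WT group held the XTR allele, in which the cassette is present but Midn is still expressed, and the Midn-T group held the TR allele, in which Cre recombinase had turned the cassette around. Cre was driven by the Albumin promoter, which acts in hepatocytes, so stellate and endothelial cells were not the cells targeted. Mice were 11 to 14 weeks old. RNA-seq covered 3 WT and 3 Midn-T livers of each sex, and ATAC-seq, which marks open chromatin, covered 2 livers of each genotype and sex. The titles of 5 ATAC-seq samples go against their own library names and characteristics, and the latter were followed.

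Stellate cells lie in the space between hepatocytes and the sinusoidal wall, store vitamin A as retinyl esters, and are the main source of fibrillar collagen when the liver scars. Sinusoidal endothelial cells form a fenestrated wall without a basement membrane, clear glycoproteins and immune complexes from the blood through scavenger receptors, and send Wnt, R-spondin and BMP ligands to the neighbouring hepatocytes. Capillary and vein endothelium outside the sinusoid shares the adhesion and receptor genes but carries more Vwf and Cd34.

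The RNA-seq tables hold 1 mean normalized count for each gene and sex, averaged over the 6 livers of that sex, WT and Midn-T together. They hold no value for a single liver, so no standard deviation, interval or test can be attached to any value here, and the depth of the libraries is unknown. Their comparison of WT with Midn-T is held only as the authors' own fold changes and p-values, which were not used, so no such comparison is given. The mean of Midn covers both genotypes and cannot be used to check the labels. Levels were compared between genes per length: the mean count was divided by the kilobases of annotated exon and scaled so that all genes of a table sum to 1000000. These units are called the level. The female over male ratio is that of the mean counts, divided by its median over the 16283 genes with a mean of at least 10 in both tables (1.04 before centring). The 2 tables were normalized separately, so every value set across them is a description.

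Promoter sequence is shown for the 7 members that carried, before their start, 1 of 6 short motifs searched on both strands. The motifs were chosen for their textbook roles in smooth muscle genes (the CArG box, CC followed by 6 A or T and GG), in core promoters (TATAAA), in endothelial genes (AGATAA, bound by the GATA factors, and the ETS sites ACAGGAAG and CCGGAAGT) and in AP-1 responsive genes (TGACTCA). Sequences are from GRCm39, 5′ to 3′ on the strand of the gene, and capitals mark the match. The first 3 members carry AGATAA upstream of genes of the sinusoidal wall:
Lyve1, chr7:110462643-110462708, minus strand: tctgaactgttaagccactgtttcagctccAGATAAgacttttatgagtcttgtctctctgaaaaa
Mrc1, chr2:14233901-14233951, plus strand: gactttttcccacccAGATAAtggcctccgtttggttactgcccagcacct
Wnt2, chr6:18032076-18032141, minus strand: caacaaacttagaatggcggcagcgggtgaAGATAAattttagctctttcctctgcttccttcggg

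The match lay 218 bases before the start in Lyve1, 235 in Mrc1 and 219 in Wnt2. With Dnase1l3, where the match spans the start on the opposite strand, 4 of 39 members held AGATAA in the 300 bases from 250 before to 50 after the start. All 4 are endothelial, as are 23 of the 39 members. The share among all 12962 protein-coding promoters of expressed genes was 7.98%, and a difference between the members and these promoters was not tested.

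The CArG box is the site bound by serum response factor. The contractile gene Tagln was the only member with an exact match to the pattern searched, 64 to 55 bases before its start:
Tagln, chr9:45847429-45847498, minus strand: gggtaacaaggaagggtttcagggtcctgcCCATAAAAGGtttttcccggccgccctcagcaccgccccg

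Its 10 capital letters read as a CArG box on both strands. Of all promoters, 1.32% held 1. Acta2 and Des, the other cytoskeletal members, held no exact match in this window. Sites that depart from the exact pattern were not searched, so a CArG box in these genes is not excluded.

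TATAAA was found before the start of 3 members:
Col3a1, chr1:45350551-45350616, plus strand: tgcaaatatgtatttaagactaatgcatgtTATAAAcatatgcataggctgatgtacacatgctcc
Ecm1, chr3:95647101-95647168, minus strand: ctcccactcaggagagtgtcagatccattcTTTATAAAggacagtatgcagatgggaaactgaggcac
Clec4g, chr8:3770672-3770712, minus strand: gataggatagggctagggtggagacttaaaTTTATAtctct

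In Col3a1 the match lay 117 bases before the start. Ecm1 held overlapping matches on both strands 195 to 188 bases before it, within an exon of the antisense gene Gm65204. In Clec4g the capitals read TATAAA on the opposite strand. With Col1a1, whose match begins at the first transcribed base, 4 members held it, against 8.54% of all promoters. TGACTCA was found in Ecm1 alone, across its start, against 3.80% of promoters. Neither ETS motif was found in any member, against 3.24% for ACAGGAAG and 6.42% for CCGGAAGT. A match of letters is not a bound site, and a window without one shows nothing about the factor.

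The 39 genes spanned a 266-fold range of level in males, from Cd34 to Cxcl12, and a 213-fold range in females. Over the canonical transcripts the range was 182-fold and 176-fold, and Wnt9b was the lowest member. Their median level was 20.1 in the male table and 23.9 in the female table. Against all genes with a mean of at least 10, 26 members were above the median level in males and 28 in females, and 4 and 6 were above the 90th percentile. Among the 10 members of highest level, 7 were endothelial and 3 stellate, or 6 and 4 over the longest transcripts. Summed, the 39 genes reached a level of 1128 in males and 1309 in females, which was 0.207% and 0.239% of the counts. Across the 39 genes the log2 levels of the 2 tables had a Pearson r of 0.989, beside 0.978 over 16213 genes, a description in which both axes share gene lengths. With no spread between livers given, neighbours in the order of levels cannot be told apart.

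**Figure D1:**
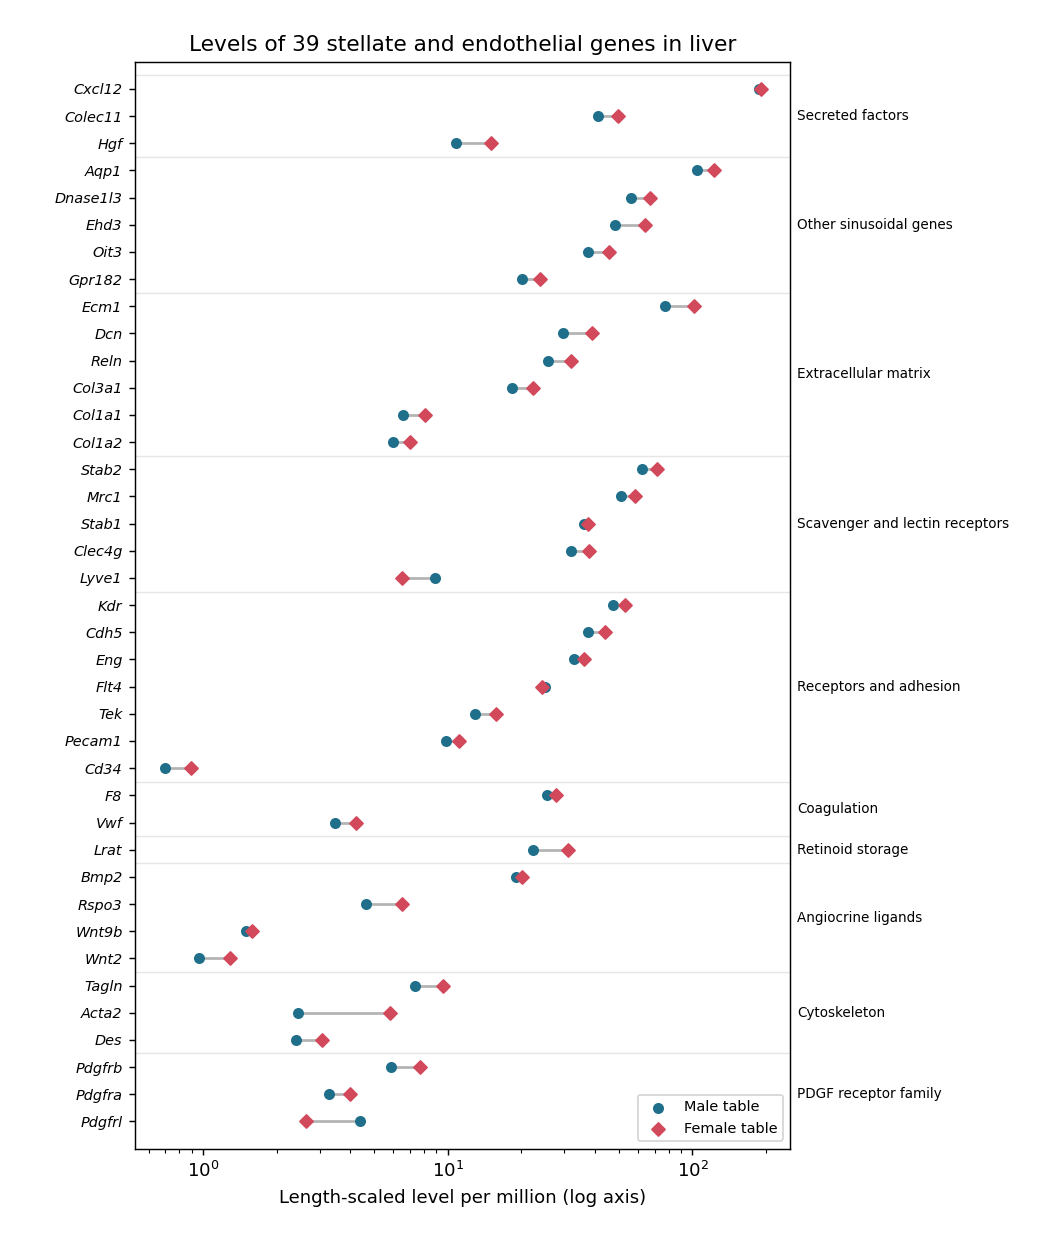
Length-scaled level (log axis, summing to 1000000 over all genes) of the 39 genes, grouped by role, with circles for the mean of the 6 male livers and diamonds for the mean of the 6 female livers; the tables give no error. Cxcl12 lies farthest right at 186 and 190, and the widest gap between the symbols is that of Acta2, at 2.45 and 5.84.

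**Figure D2:**
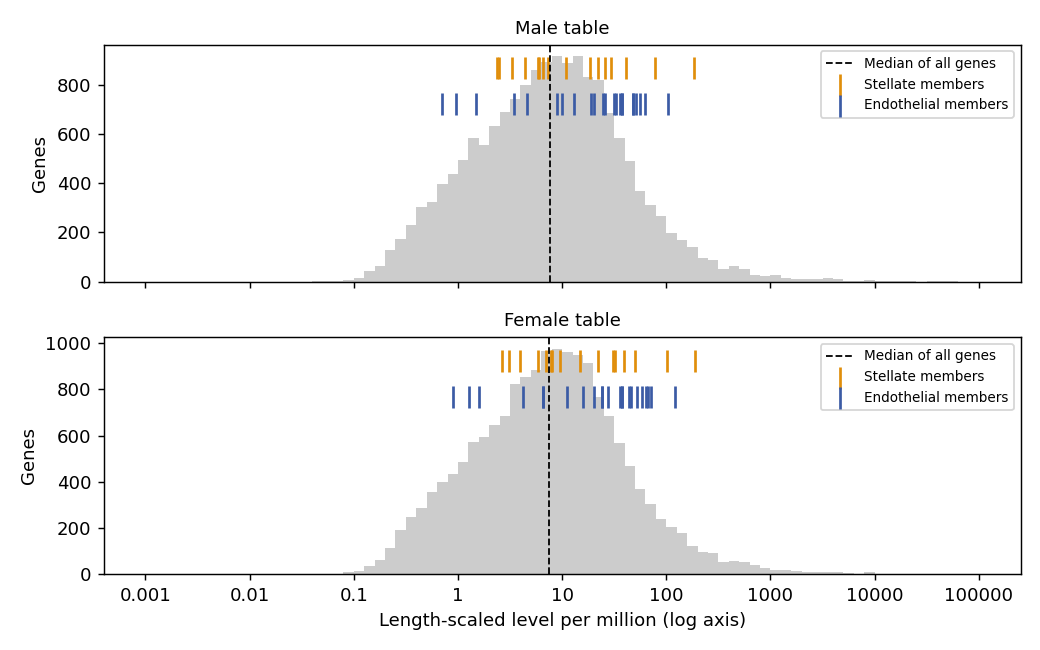
Number of genes by level (log axis) in the male and female tables, for genes with a mean count of at least 10, with ticks for the 16 stellate and 23 endothelial members and a dashed line at the median of all genes. Of the 39 ticks, 26 lie right of the line in males and 28 in females.

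The matrix genes of the stellate group reached a summed level of 163 in males and 210 in females. Ecm1, a secreted glycoprotein of the extracellular matrix, led them at 77.2 and 102. Dcn, the collagen-binding proteoglycan decorin, stood at 29.7 in males and 39.04 in females. Reln, which encodes the secreted glycoprotein reelin and marks stellate cells in healthy liver, stood at 25.6 and 32.04. These non-fibrillar products were above all 3 collagen genes in both tables.

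Col3a1, the type III collagen chain, had a level of 18.4 in males and 22.3 in females. Col1a1, the alpha 1 chain of type I collagen, had 6.55 and 8.08. Col1a2, the alpha 2 chain, had 5.95 and 7.04. Col3a1 was therefore 2.81 times Col1a1 in males and 2.76 times in females. The order of the type I chains depended on the length used: the level of Col1a2 over that of Col1a1 was 0.909 and 0.871 over all annotated exons, but 1.94 and 1.86 over the canonical transcripts, whereas Col3a1 stayed above Col1a1 by 4.679 and 4.601 times.

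Lrat, the lecithin retinol acyltransferase that makes the retinyl esters stored in stellate cells, had a mean count of 924 in males and 1311 in females, a level of 22.2 and 31.0. Of the secreted factors, Cxcl12, the chemokine that binds CXCR4, was the highest member by far, with mean counts of 12072 and 12498 and levels of 186 and 190. Its gene is at chr6:117144945-117158328 on the plus strand of GRCm39. Colec11, a soluble C-type lectin of the complement system, had levels of 41.3 and 49.6. Hgf, the hepatocyte growth factor made by stellate and endothelial cells and read by MET on hepatocytes, had 10.8 and 15.0, and 4.54% of its exonic bases are shared with Gm43489 on the same strand.

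The receptors of platelet-derived growth factor were low. Pdgfrb, the receptor that marks stellate cells and pericytes, had a level of 5.85 in males and 7.74 in females. Pdgfra, which is more typical of portal fibroblasts and stellate cells at rest, had 3.28 and 3.97. Pdgfrl, a receptor-like protein without the kinase domain, was the only one of the 3 with the higher value in males, 4.40 beside 2.63. The level of Pdgfra over that of Pdgfrl was 0.746 in males and 1.51 in females, so their order differed between the tables.

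The cytoskeletal members describe the contractile state of mesenchymal cells. Tagln, which encodes transgelin, had a level of 7.33 in males and 9.60 in females. Acta2, the smooth muscle actin of vessel walls and activated stellate cells, had a mean count of 61.4 in males and 149 in females, a level of 2.45 and 5.84. Des, the intermediate filament protein desmin, had 2.39 and 3.08. Acta2 was close to Des in males, with Des over Acta2 at 0.975, and the higher of the pair in females, at 0.527. Over the canonical transcripts the same ratio was 1.38 and 0.747.

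The scavenger and lectin receptors of the sinusoidal wall summed to a level of 190 in males and 212 in females. Stab2, the endocytic receptor that clears hyaluronan, had 62.4 and 71.8, and Mrc1, the mannose receptor, had 51.1 and 58.0. Their order turned with the length used: over the canonical transcripts Stab2 had 40.6 and 46.8 and Mrc1 45.1 and 51.3, and over the longest transcripts Mrc1 was again the higher. Stab1, the relative of Stab2, had 35.9 and 37.4, so the level of Stab2 was 1.74 times that of Stab1 in males and 1.92 times in females. Clec4g, the lectin LSECtin, had 31.8 and 37.9. Lyve1, a hyaluronan receptor of sinusoidal and lymphatic endothelium, was the lowest of the 5 and the only one higher in males, with 8.89 beside 6.50. Mrc1 and Stab1 are also made by macrophages, so their levels are not those of endothelium alone.

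Other genes enriched in sinusoidal cells summed to 266 and 323. Aqp1, the water channel, which bile duct cells also make, had 104 in males and 122 in females. It was second to Cxcl12 among the 39 over all annotated exons, but Ecm1 was above it over the canonical transcripts, at 71.5 and 94.6 beside 64.6 and 75.6, and over the longest transcripts. Dnase1l3, the secreted nuclease that degrades DNA in the blood, had 56.1 and 67.0. Ehd3, a protein of endocytic recycling, had 48.2 and 64.0. Oit3, a secreted protein with a zona pellucida domain, had 37.6 and 45.8, and Gpr182, an atypical chemokine receptor, had 20.1 and 23.9. All 5 were above the median level of all genes in both tables.

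Among the receptors and adhesion proteins, Kdr, the main VEGF receptor, had a level of 47.5 in males and 52.8 in females. Flt4, the VEGF-C receptor, had 25.0 and 24.2, and Tek, the angiopoietin receptor, had 12.9 and 15.7. Kdr was thus 1.90 and 2.18 times Flt4, and 3.68 and 3.36 times Tek. Cdh5, the VE-cadherin of endothelial junctions, had 37.5 and 43.9, and Eng, the TGF-beta co-receptor endoglin, had 32.8 and 36.1. Pecam1, the general endothelial adhesion molecule, was lower at 9.87 and 11.2. Over the canonical transcripts Pecam1 had 16.6 and 18.8, above Tek at 9.69 and 11.8. Cd34, which marks vascular endothelium outside the sinusoid, had 0.6997 and 0.8933, the lowest of the 39 over all annotated exons. Over the canonical transcripts it had 2.10 and 2.68, above Wnt9b at 0.9297 and 0.9823.

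The coagulation members are F8 and Vwf. F8, the factor VIII gene whose main source is the sinusoidal endothelium, had a level of 25.6 in males and 27.8 in females. Vwf, the carrier of factor VIII that marks vein endothelium, had 3.46 and 4.24. F8 was 7.40 times Vwf in males and 6.56 times in females, and 3.96 and 3.51 times over the canonical transcripts.

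Of the ligands that endothelium sends to hepatocytes, Bmp2, which controls hepcidin and so iron uptake, had the highest level, 18.9 in males and 20.2 in females. Rspo3, the R-spondin that amplifies Wnt signals around the central vein, had 4.62 and 6.51. Wnt9b and Wnt2, the Wnt ligands of pericentral and midlobular endothelium, had 1.504 and 1.585, and 0.960 and 1.29. The order of the Wnt genes turned with the length used, since Wnt2 over Wnt9b was 0.638 and 0.811 over all annotated exons and 2.25 and 2.86 over the canonical transcripts.

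After centring on all genes, 35 of the 39 members had a female over male ratio above 1 and 4 had one below. The members' median ratio was 1.18, in a range from 0.586 to 2.34. Of all genes, the middle range from the 25th to the 75th percentile ran from 0.884 to 1.17, and 22 members lay above the upper of these limits, 13 stellate and 9 endothelial, while 2 lay below the lower one. In whole tissue, fewer cells of a type and less RNA per cell cannot be told apart. Each ratio mixes both genotypes, and whether the sexes differed beyond the spread between livers was not tested.

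Only Acta2 was at least 1.5-fold higher in females, and 7.31% of all genes were. Only Pdgfrl was at least 1.5-fold lower, and 4.31% of all genes were. Among the 12156 genes within the members' range of male mean counts, these shares were 4.51% and 4.34%, and the median ratio was 0.977. In that range 44.7% of genes had a ratio above 1.

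**Figure D3:**
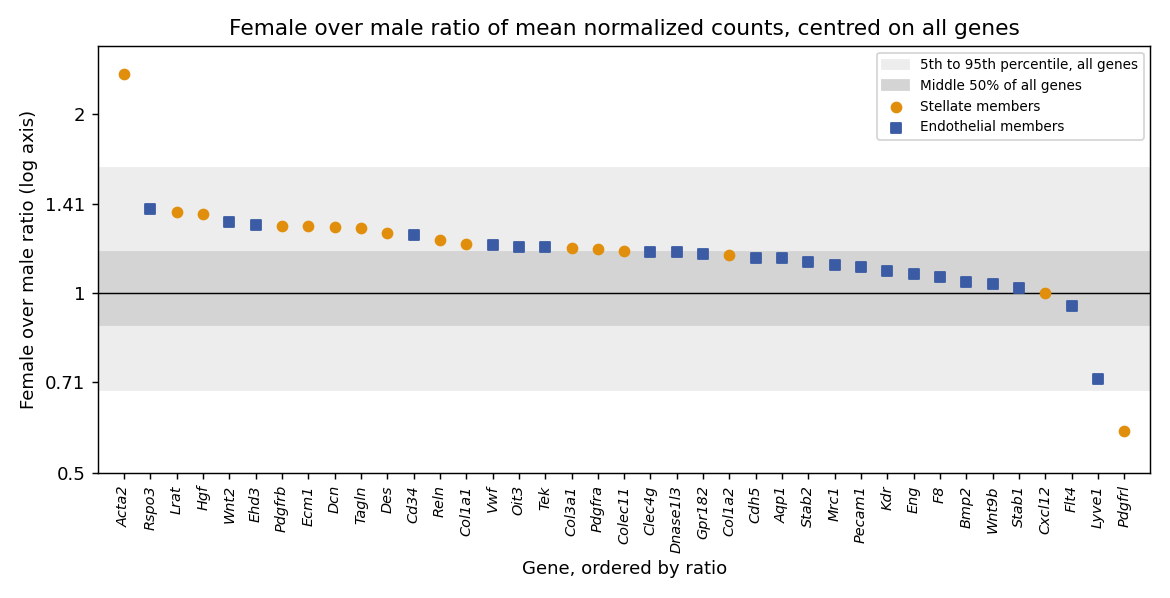
Female over male ratio of mean normalized counts (log axis), centred on all genes, for the 39 members in order of ratio; circles are stellate members and squares endothelial members, the dark band is the middle 50% of all genes and the light band their 5th to 95th percentile (0.687 to 1.62). Acta2 at 2.34 lies above the light band and Pdgfrl at 0.586 below it.

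Acta2, at chr19:34217737-34232990 on the minus strand, had a ratio of 2.34, at percentile 98.8 of all genes. Its mean counts were low, 61.4 in males and 149 in females, and the spread of the livers behind them is unknown. The next stellate genes were Lrat at 1.37, Hgf at 1.36, Pdgfrb at 1.298, Ecm1 and Dcn at 1.29, Tagln at 1.28 and Des at 1.26. Reln followed at 1.23, Col1a1 at 1.21, Col3a1 and Pdgfra at 1.19, Colec11 at 1.18 and Col1a2 at 1.16. Cxcl12, the most abundant, was at 1.00, the median of all genes. Pdgfrl, at chr8:41379147-41444594 on the plus strand, was at 0.586, at percentile 2.52 of all genes, with mean counts of 135 in males and 81.7 in females. The median over the 16 stellate members was 1.24.

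Endothelial members were led by Rspo3 at 1.38, Wnt2 at 1.31, Ehd3 at 1.302 and Cd34 at 1.25. Vwf, Oit3 and Tek were at 1.20, Clec4g, Dnase1l3 and Gpr182 at 1.17, and Cdh5 and Aqp1 at 1.15. Stab2 was at 1.13, and Mrc1 and Pecam1 at 1.11. Kdr was at 1.09, Eng at 1.08, F8 at 1.07, Bmp2 at 1.05, Wnt9b at 1.03 and Stab1 at 1.02. Flt4, at 0.951, and Lyve1, at 0.717 or 1.39 times as high in males, were the ones below 1. The median over the 23 endothelial members was 1.15, and none was 1.5-fold from the median of all genes in either direction.

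Other genes of the same cells gave similar medians. Of 20 other stellate genes, 17 had means of at least 10 in both tables, and 15 of these had a ratio above 1, with a median of 1.23. The highest of them by level were Bgn, the proteoglycan biglycan, at 45.4 in males and 57.2 in females, Sparc, a collagen-binding matrix protein, at 42.5 and 53.3, and Rgs5, a pericyte regulator of G protein signals, at 32.4 and 40.8. Timp1, the inhibitor of matrix proteases that activated stellate cells make, had a mean count of 2.597 in males and is not listed in the female table. The smallest mean count in the female table is 6.61, so its absence there shows no difference between the sexes. Of 20 other endothelial genes, 15 had a ratio above 1, with a median of 1.13. Ptprb, the vascular phosphatase VE-PTP, led them by level at 67.7 and 81.7, ahead of Fcgr2b, the Fc receptor of sinusoidal cells, at 44.5 and 51.3, and Maf, a transcription factor of sinusoidal endothelium, at 25.4 and 33.7.

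Markers of other cell types are given for their whole lists, and their part in the members' ratios was not tested. The 10 hepatocyte genes, led by Alb, Apoa1 and Ttr, summed to a level of 83404 in males and 92813 in females, 74.0 and 70.9 times the sum of the 39 members. Most of this sum was Alb, at 43596 in males and 57983 in females. The median ratio of the 10 genes was 0.887, and 4 of 10 were above 1, Alb among them at 1.305. The 10 Kupffer cell genes, led by Cd5l, Clec4f and C1qa in the mean of both sexes, summed to 549 and 554, with a median ratio of 0.970 and 3 of 10 above 1.

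Smooth muscle also makes Acta2, Tagln and Des, and the part of smooth muscle in the ratios of these members was not tested. The 5 vascular smooth muscle genes summed to a level of 4.09 in males and 7.05 in females. Myh11, the smooth muscle myosin heavy chain, had a mean count of 166 in males and 289 in females, a ratio of 1.68. Lmod1, leiomodin, had mean counts of 13.6 and 24.1, a ratio of 1.71, and Actg2, the enteric smooth muscle actin, had 4.38 and 11.3. Cnn1, calponin, had 5.498 and 8.203, under 10 in both. The 3 genes with enough counts were Myh11, Lmod1 and Synpo2, the last at a ratio of 1.35. Their median ratio was 1.68, above that of the stellate members. The 6 cholangiocyte genes, led by Spp1, Sox9 and Epcam, summed to 44.9 and 50.5 with a median of 1.44, and 5 of 6 were above 1. The 5 mesothelial genes had a median of 1.39 and 4 were above 1, while their summed level, 277 and 243, was mostly Krt8, at 274 and 237, which hepatocytes also make. Gpm6a followed at a level of 1.78 and 2.45, and Upk3b at 1.26 and 1.79.

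**Figure D4:**
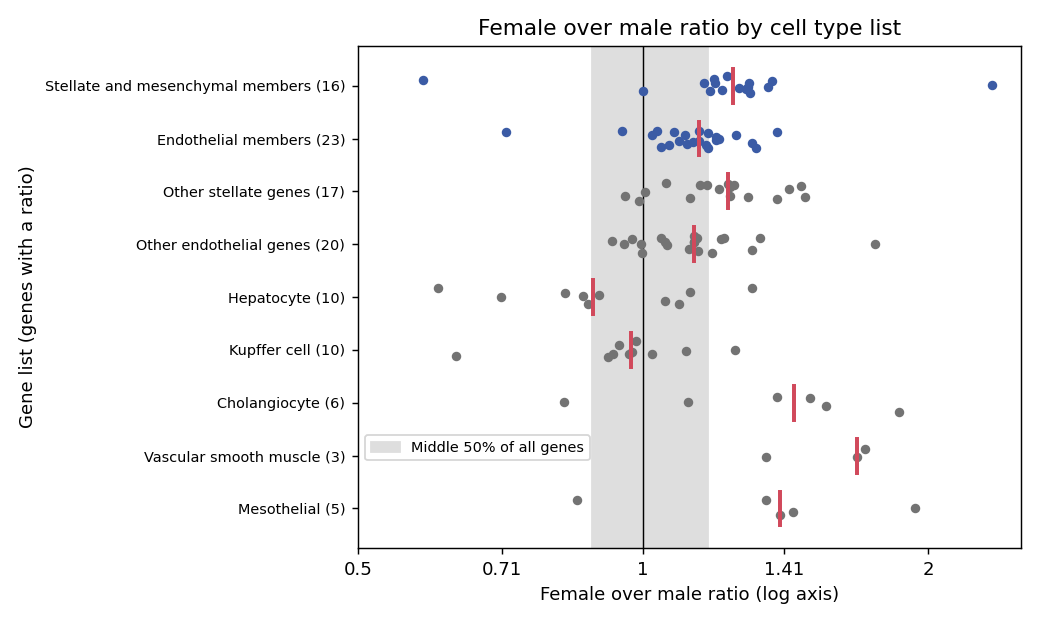
Female over male ratio (log axis), centred on all genes, for each gene of the lists described here with a mean count of at least 10 in both tables; points are genes, vertical bars are list medians and the band is the middle 50% of all genes. The medians of the stellate (1.24) and endothelial (1.15) members lie above those of the hepatocyte (0.887) and Kupffer cell (0.970) lists. They lie below those of the vascular smooth muscle (1.68, over 3 genes), cholangiocyte (1.44) and mesothelial (1.39) lists.

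The ATAC-seq lists hold 179 peaks from males and 217 from females, each 500 bp wide, which the authors had selected by their own comparison of the genotypes, the male list at a raw P and the female list at a false discovery rate. By the paper's account, no male peak met the threshold used for females, and the male peaks are exploratory. The positions were used here without their direction. In males 1 of the 39 members had a listed peak within 50 kb of its start, against 2.16% of 12962 protein-coding genes. In females none had one, against 0.887%. The median distance from a member to the nearest listed peak was 5398 kb in males and 3062 kb in females, against 4275 kb and 4868 kb over protein-coding genes.

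The member was Stab2, which spans chr10:86675054-86843889 on the minus strand. The peak is listed at chr10:86828455-86828955, 15.2 kb downstream of the start and so inside the gene, and Stab2 was the nearest protein-coding start. Of its bases, 144 overlap an annotated Stab2 exon at chr10:86828376-86828599 with no annotated coding sequence, and the whole peak lies in an intron of Gm16271, a long non-coding RNA gene on the opposite strand. The 300 bases at its centre, chr10:86828556-86828855 on the plus strand of GRCm39, are shown as the only listed peak within 50 kb of the start of any of the 39 genes, with capitals for the motif matches:
Stab2 peak: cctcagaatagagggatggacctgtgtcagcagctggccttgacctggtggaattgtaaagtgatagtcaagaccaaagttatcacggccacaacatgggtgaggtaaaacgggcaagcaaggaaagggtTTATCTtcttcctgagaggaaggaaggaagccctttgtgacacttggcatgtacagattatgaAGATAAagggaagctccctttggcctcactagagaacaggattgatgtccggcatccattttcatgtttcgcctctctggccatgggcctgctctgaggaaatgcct

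They held AGATAA once on each strand and none of the other 5 motifs, and 49% of the bases were G or C. At least 1 AGATAA was found at the centre of 14 of the 179 male peaks (7.82%) and 18 of the 217 female peaks (8.29%). The Stab2 peak was the only 1 of all these with more than 1 AGATAA. Of the other motifs, TATAAA was found more than once in 2 male and 5 female peaks. The CArG box, which reads on both strands, was counted more than once in 3 female peaks. Whether the Stab2 peak departs from other sequence in this was not tested. The level of Stab2 in the RNA-seq tables was 62.4 in males and 71.8 in females, as given above.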

How the data were processed

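RNA-seq and ATAC-seq of whole liver were used. Per the labels and the study's methods, reads were aligned to GRCm39 with STAR 2.7. The authors counted reads that mapped once, by strand and Ensembl gene, with HTSeq, and normalized males and females apart with DESeq2. The deposited signal is the authors' mean over 6 livers of counts divided by DESeq2 size factors. The remaining deposited columns hold the authors' own comparison (log2 fold change, standard error, Wald statistic, p-value and adjusted p-value) and were not used. For ATAC-seq the authors merged MACS2 peaks, counted reads with featureCounts and compared genotypes with edgeR. Only peak positions were used, not the direction column. No value per sample is given, so depth and error are unknown and no test was run.

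Gene lengths, starts and promoters came from GENCODE M39 on GRCm39, which holds 56323 of the 56884 listed genes. The paper counted reads on another annotation release, so counts and lengths do not rest on the same gene models. Starts are those of the canonical transcript, motifs were counted as exact matches, and promoters were those of protein-coding genes with a mean of at least 10 in both tables. A ratio was called at 1.5-fold. The calculation was tested on simulated data. All 39 members are named, with the 3 highest genes of other lists and those under 10 in both tables, and a few further members of those lists were named after their values were seen. A further marker list is not reported here. The members and lists were chosen with earlier results of these data known. Analyses used Python 3.11.15, pandas 2.3.3, numpy 2.4.6 and matplotlib 3.10.9.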

Additional observations from a re-analysis of the deposited data

How the results depend on the processing

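Cxcl12 stayed the member of highest level under the 3 gene lengths tried, whereas the second highest and the lowest member depended on the length. The members' summed level was 1171 in males and 1370 in females with the longest transcript as length, 979 and 1142 with the canonical transcript, and 1324 and 1587 when scaled without the 10 most abundant genes. With canonical lengths, 2 members in place of 4 were above the 90th percentile in males. Ratios above 1 were found in 36 of 39 members when centred by the sum of mean counts, with a median of 1.20, and in 36 when centred on protein-coding genes, with a median of 1.20. A minimum mean of 100 left 33 members, without Acta2 and Pdgfrl. Of these 31 were above 1, the median was 1.21, and 0 were 1.5-fold higher or lower, beside 4.39% and 2.94% of all genes at that minimum. At 2-fold, 0 members were lower in females and 1, Acta2, was higher, beside 1.505% and 1.99% of all genes. Within 10 kb of the start 0 members had a listed male peak, and within 200 kb 2 of 39 had, Stab2 and Ecm1, beside 0.995% and 5.78% of protein-coding genes. The canonical length and the background of 12156 genes in the members' range of means were chosen after seeing the data. Leaving out each replicate was not possible because the tables give no value per sample. No paired analysis was possible because the tables give no value per sample. With means of 6 livers and no spread, no value can be checked for its dependence on 1 liver. The members of lowest mean count in males were Wnt9b, Acta2 and Cd34.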

Other observations

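Outside the 39 members, Cd36, a fatty acid transporter made by endothelium and hepatocytes, had a mean count of 806 in males and 1465 in females, a ratio of 1.76. Marco, a scavenger receptor of Kupffer cells, had 424 and 279, a ratio of 0.635. Of the 6 bile duct genes, the more abundant Spp1 and Sox9 had ratios of 1.11 and 0.825, Epcam had 1.39, and the low Krt19, Krt7 and Cftr had 1.864, 1.5001 and 1.56. Midn, the trapped gene, had a mean count of 1672 in males and 1357 in females over both genotypes, a ratio of 0.784. None of these differences was tested, since the tables hold no spread between livers.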
